A study of Mus musculus with 8 samples.

Results

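The 8 genes described here, of the granulocyte and macrophage recruitment axis, were followed through 2 mouse pancreatic tumors: the chemokines Cxcl1, Cxcl2, Cxcl3 and Cxcl5, their shared receptor Cxcr2, and the growth factors Csf1, Csf2 and Csf3. The members were chosen by symbol, and all 8 were found once among the 27775 gene rows of each count table. Pancreatic tumors of KPC mice (LSL-Trp53R172H/+; Pdx-1-Cre among their alleles), in which the Pdx1 promoter drives Cre in the pancreatic lineage so that the mutant Trp53 is switched on there, were dissociated and profiled with droplet 3′ single-cell RNA-seq. The medium-size tumor gave 2812 cells and the large tumor 1533 cells, each as 1 table in which 4 technical replicates are pooled. Both tumors carried the same alleles and were untreated. The age of the mice was not given in the sources used here, and no tumor-free pancreas was compared.

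The ELR-type CXC chemokines Cxcl1, Cxcl2, Cxcl3 and Cxcl5 bind the receptor Cxcr2, which neutrophils carry, and draw these cells into inflamed tissue. Csf3 (G-CSF) drives the production of neutrophils, Csf1 (M-CSF) keeps monocytes and macrophages alive through the receptor Csf1r, and Csf2 (GM-CSF) acts on granulocytes and macrophages. In pancreatic carcinoma these factors are known for shaping the myeloid infiltrate, and the chemokine genes are classical targets of NF-kB with short-lived messages.

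The 4 chemokine genes lie together on chromosome 5 (GRCm38, GENCODE M21), within 147 kb at chr5:90759360-90905938, among 7 protein-coding genes in the order Cxcl5, Ppbp, Pf4, Cxcl3, Cxcl15, Cxcl1 and Cxcl2. Cxcr2 lies at chr1:74153989-74161246 and Csf1 at chr3:107741048-107760469. Csf2 lies at chr11:54247271-54249667 and Csf3 at chr11:98701263-98703629. The promoters of Cxcl1, Cxcl2 and Cxcl3 are shown because these 3 genes were the members of at least 50 UMIs with their highest levels in monocyte/macrophage-like cells of the medium tumor. The sequences are from RefSeq (GRCm38.p6), end 1 to 3 bases before the annotated start, and are written on the plus strand, which is the strand of all 3 genes. Capitals mark the runs of at least 8 letters that the 3 promoters share, GGGAATTTCCC, an NF-kB-type sequence, and ATAAAAGG, a TATA-type sequence.
Cxcl1, chr5:90890995-90891240: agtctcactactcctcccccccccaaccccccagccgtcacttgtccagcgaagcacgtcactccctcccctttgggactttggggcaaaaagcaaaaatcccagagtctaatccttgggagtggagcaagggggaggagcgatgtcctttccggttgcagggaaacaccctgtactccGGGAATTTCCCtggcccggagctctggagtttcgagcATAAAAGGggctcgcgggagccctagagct
Cxcl2, chr5:90903649-90903870: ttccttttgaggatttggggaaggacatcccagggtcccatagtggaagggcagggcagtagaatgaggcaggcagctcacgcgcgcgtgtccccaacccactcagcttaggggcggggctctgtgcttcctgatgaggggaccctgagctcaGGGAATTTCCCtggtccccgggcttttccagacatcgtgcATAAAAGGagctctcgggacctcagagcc
Cxcl3, chr5:90785851-90786100: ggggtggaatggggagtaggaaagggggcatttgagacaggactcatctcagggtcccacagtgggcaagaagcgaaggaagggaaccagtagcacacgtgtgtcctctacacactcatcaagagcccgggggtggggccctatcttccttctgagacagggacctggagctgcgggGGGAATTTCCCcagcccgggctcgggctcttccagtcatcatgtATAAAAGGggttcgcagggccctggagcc

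The letters GGGAATTTCCC, searched on both strands of 32817 RefSeq promoter windows of 250 bases (whole, also where the sequence above is shortened to the annotated start), were in 14 windows (0.0427%), among them those of 3 of the 6 members that the table holds. The last base of this run lay 57 bases before the annotated start of Cxcl1, 59 bases before that of Cxcl2 and 65 bases before that of Cxcl3. The letters ATAAAAGG were in 1.54% of the windows and ended 22 to 24 bases before the start of the same 3 genes. Since both runs were taken from these promoters, their presence there is a description with no test. The windows of Cxcr2, Csf1 and Csf2 held neither run, and the promoters of Cxcl5 and Csf3 were not matched.

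In the 3′ UTRs, the pentamer ATTTA, the core of AU-rich elements of unstable messages, occurred 7 times in Cxcl1, 11 times in Cxcl2, 5 times in Cxcl3 and Cxcl5 and 9 times in Csf2, where the UTR has 317 bases. It occurred 6 times in Csf3, 4 times in Csf1 and 2 times in Cxcr2. In all, 6 of the 8 members held 5 or more copies, against 21.6% of 21021 genes. Cxcl2 and Cxcl3 shared 82 overlapping windows of 30 identical bases, 8.31% of those in the Cxcl3 transcript and 4.48% of those in Cxcl2. A read wholly within shared sequence cannot be assigned to either gene, and how many reads lay so was not examined. No other pair of members shared such a window.

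Levels are given as the UMIs of a gene per 1000000 UMIs (CPM) summed over the cells of a class or cluster, with exact 95% Poisson intervals. Intervals cover counting error only. Each size is 1 tumor, so no test between sizes or classes was possible, and a difference is called here at a 2-fold ratio. The medium tumor gave 20301669 UMIs (median 5456.5 per cell) and the large tumor 2239012 UMIs (median 1037), so 3 UMIs over all cells correspond to 0.148 CPM and 1.34 CPM, and low values of the large tumor carry less weight. Cells were clustered without the members among the variable genes and named from marker genes. In the medium tumor 2326 cells (82.7%) were epithelial-like and 237 (8.43%) monocyte/macrophage-like, with 74 mesothelial-like (6 of 6 mesothelial and 4 of 10 stromal markers), 70 stromal-like and 39 endothelial-like cells, and 66 cells (cluster 13) stayed unnamed because they carried 10 of 11 epithelial and 9 of 11 monocyte/macrophage markers. In the large tumor 1219 cells (79.5%) were epithelial-like, 253 (16.5%) monocyte/macrophage-like, 50 stromal-like and 11 endothelial-like. The epithelial-like name rested on 3 of 11 markers in medium cluster 7 and large cluster 1 and on 6 to 11 in the other epithelial-like clusters. Of the large clusters, 4 (enterocyte genes such as Fabp1), 6 (goblet genes such as Muc2) and 9 (17 cells), went with gut lists or stood apart by their leading genes (Upk3a, Sprr2f and Krt15 in cluster 9), so values of the large epithelial-like cells are also given for the other 834 cells. The tables shared 5 cell barcodes.

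The chemokines fell into 2 patterns in the medium tumor. Cxcl1, Cxcl2 and Cxcl3 had their highest levels in monocyte/macrophage-like cells, whereas Cxcl5 had its highest level in epithelial-like cells. The latter held for summed UMIs and not when every cell had equal weight, where another class was highest. Of the 6 members with at least 50 UMIs in both classes together, 3 (Cxcl1, Cxcl2 and Cxcl3) were at least 2-fold lower in epithelial-like than in monocyte/macrophage-like cells, against 10.5% of 10888 genes, and 1 (Cxcl5) was at least 2-fold higher, against 27.2%. The same 3 of 4 such members were lower in the large tumor, against 10.1% of 4693 genes, and Cxcl5 was again higher, against 24.5%.

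**Figure D1:**
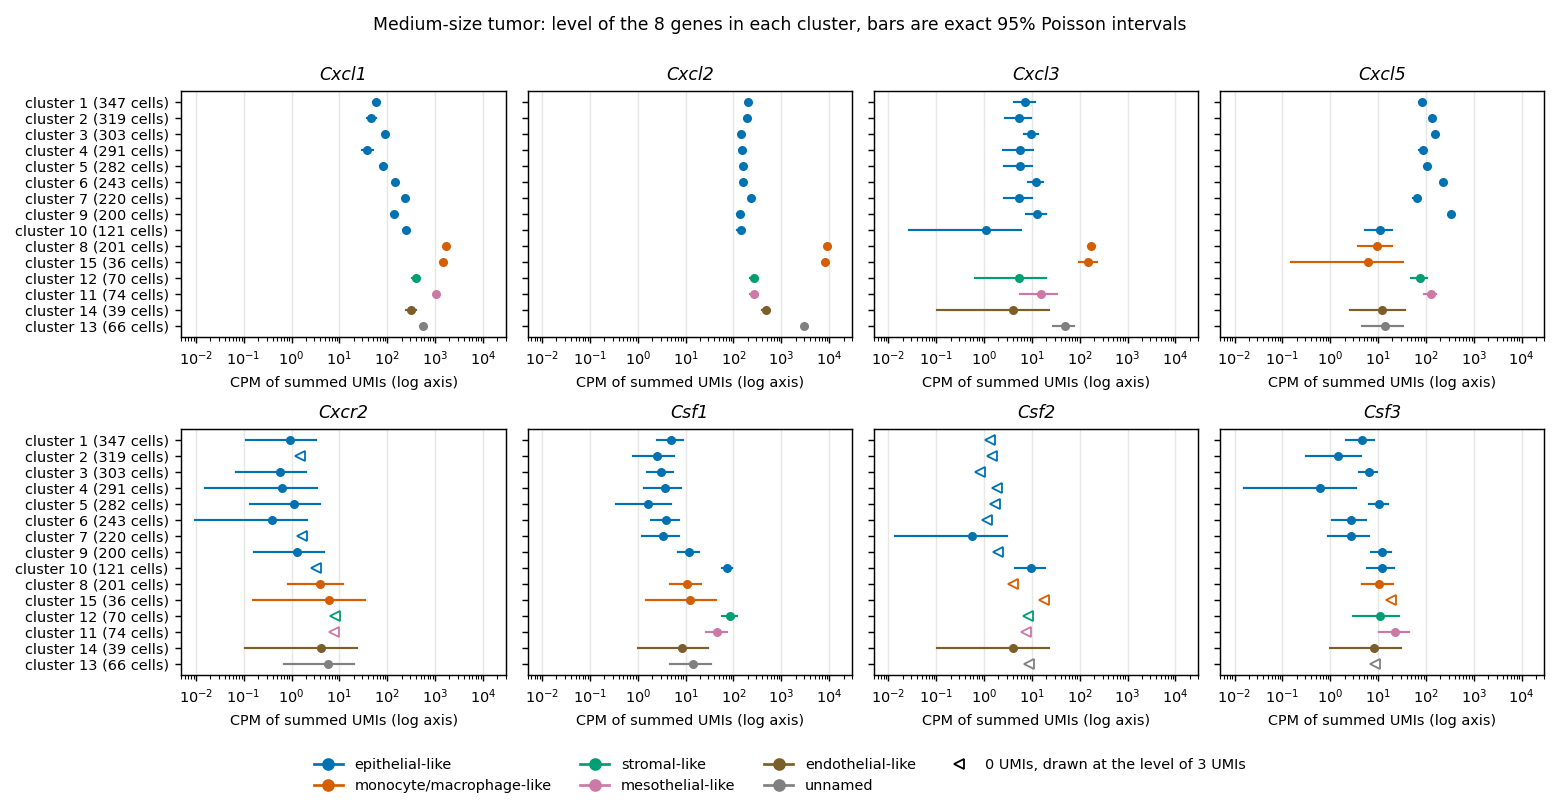
Level of each of the 8 genes in the 15 clusters of the medium-size tumor, as CPM of summed UMIs on a log axis, with exact 95% Poisson intervals and colors for the classes. Cxcl2 lay at 8949.6 CPM over both monocyte/macrophage-like clusters and between 135 and 232 CPM in the 9 epithelial-like clusters, while Csf2 had UMIs in 3 clusters only.

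Cxcl2, a neutrophil chemokine that macrophages make on activation, was at 8949.6 CPM (8757 to 9146) in monocyte/macrophage-like cells of the medium tumor and at 169 CPM (163 to 175) in epithelial-like cells, 53.0-fold apart (50.8 to 55.3). The intermediate levels were 2961 CPM in the unnamed cluster, 468 CPM in endothelial-like, 273 CPM in stromal-like and 268 CPM in mesothelial-like cells. The last 2 intervals overlapped (222 to 332 and 219 to 325), so their order was not resolved. The endothelial-like level was carried by few cells, since it was 72.3 CPM without the 5 cells that held most UMIs. Macrophage expression was broad by comparison: 94.9% of the 237 monocyte/macrophage-like cells (median 3508 UMIs per cell) had a Cxcl2 UMI, with a median of 28 per cell, and 181 of them had 10 or more. Among epithelial-like cells (median 5970 UMIs) 43.2% had a UMI, and 59 of 2326 cells with 10 or more UMIs held 46.2% of the class's Cxcl2 UMIs. With each cell thinned to 2500 UMIs the shares were 92.4% and 22.3%. Because epithelial-like cells were the most numerous, they still held 24.2% of all Cxcl2 UMIs of the medium tumor, against 65.0% in monocyte/macrophage-like cells. Monocyte/macrophage-like cells were also highest in the large tumor, with 12035 CPM (11554 to 12530), followed by stromal-like cells with 1130 CPM and epithelial-like cells with 597 CPM (564 to 633), 20.2-fold (18.8 to 21.6) below the first. The 11 endothelial-like cells, which ranked above stromal-like and epithelial-like cells in the medium tumor, had 563 CPM (258 to 1069) in the large tumor, all 9 UMIs in 1 cell.

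Cxcl1, a ligand made by many stromal and epithelial cells as well as macrophages, was spread over more cell classes. Its level in the medium tumor was 1636 CPM (1554 to 1721) in monocyte/macrophage-like, 1034 CPM (936 to 1140) in mesothelial-like, 561 CPM in unnamed, 390.5 CPM (329 to 460) in stromal-like, 312 CPM (246 to 391) in endothelial-like and 111 CPM (106 to 116) in epithelial-like cells. The intervals of the stromal-like and endothelial-like cells overlapped, and those of the other neighbours in this order were apart, by counting error only. Monocyte/macrophage-like cells lay 14.7-fold (13.7 to 15.7) above epithelial-like cells, and mesothelial-like cells 9.30-fold (8.34 to 10.4). Without the 5 cells with most Cxcl1 UMIs the mesothelial-like level was 609 CPM, and the endothelial-like level was 87.8 CPM, below the 111 CPM of all epithelial-like cells. Cxcl1 was found in 69.6% of monocyte/macrophage-like cells and 28.0% of epithelial-like cells, or 65.8% and 14.3% after thinning to 2500 UMIs. In the large tumor the order of the classes was another one. Stromal-like cells had 3595 CPM (3159 to 4075; 2446 without the 5 highest cells), monocyte/macrophage-like cells 2380.5 CPM (2169 to 2606) and epithelial-like cells 627 CPM (593 to 664). The 11 endothelial-like cells had 501 CPM from 8 UMIs, with an interval (216 to 987) that includes the epithelial level. Stromal-like cells were thus 1.51-fold (1.29 to 1.77) above monocyte/macrophage-like cells in the large tumor and at 0.239 of their level (0.200 to 0.284) in the medium tumor. Without the 5 highest cells of each class, the large levels were 2446 CPM in stromal-like and 1971 CPM in monocyte/macrophage-like cells. No member of 3 was called higher in large stromal-like than in monocyte/macrophage-like cells, against 10.3% of 779 genes, and 1 of 4 (Cxcl1) was called higher than in epithelial-like cells, against 14.1% of 4494. Genes that dissociation can induce were called higher in some of these comparisons and not in all. Of 10 immediate early and stress genes, 6 were called higher in medium mesothelial-like than in epithelial-like cells, against 13.7% of genes, and 9 of 11 NF-kB targets were. In large stromal-like cells 6 of 10 were called higher than in epithelial-like cells and 5 of the 6 tested higher than in monocyte/macrophage-like cells. Between medium epithelial-like and monocyte/macrophage-like cells Atf3 alone of the 10 was called, and it was higher in epithelial-like cells. The part of these genes in the Cxcl1 levels was not tested.

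Cxcl3, the only member that shared transcript sequence with Cxcl2, was scarcer and, like Cxcl2, highest in monocyte/macrophage-like cells. It was at 171.8 CPM (146 to 201) in monocyte/macrophage-like and 7.87 CPM (6.63 to 9.28) in epithelial-like cells of the medium tumor, 21.8-fold apart (17.3 to 27.6). Mesothelial-like cells had 15.3 CPM from 6 UMIs, and stromal-like and endothelial-like cells 2 and 1 UMIs. In the large tumor it was at 464 CPM (373 to 570) in monocyte/macrophage-like and 38.8 CPM (30.6 to 48.6) in epithelial-like cells. Over the 15 medium clusters the levels of Cxcl2 and Cxcl3 had a Pearson r of 0.936, and over the 10 large clusters 0.788, as a description in which all points of a tumor share a library and the 2 transcripts share some sequence. Among the medium epithelial-like clusters alone, Cxcl3 was highest in cluster 9 (12.6 CPM from 19 UMIs), where Cxcl2 was lowest (135 CPM).

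Cxcl5, a ligand known from epithelial cells, showed the opposite distribution. It was at 143 CPM (138 to 149) in epithelial-like cells of the medium tumor, which held 96.6% of its 2671 UMIs, and at 8.75 CPM (3.78 to 17.3) in monocyte/macrophage-like cells, a 16.3-fold difference (8.28 to 37.9). On the log2 scale this was 4.03, and 2.42 when each cell was named from its own markers. The 8 UMIs in monocyte/macrophage-like cells gave 6.12% of the epithelial level and 11 epithelial markers 4.54% to 10.7% of theirs in the same cells, so this level was not told apart from background, and what it came from was not tested. Mesothelial-like cells had 125 CPM (92.6 to 165), an interval that includes the epithelial level, and stromal-like cells 73.7 CPM, but these came from few cells: without the 5 highest cells the levels were 5.56 CPM and 5.96 CPM. In the large tumor 256 of 260 UMIs were in epithelial-like cells (131 CPM, 115 to 148) and none in the 253 monocyte/macrophage-like cells, which put epithelial-like cells at least 8.55-fold higher against a floor of 3 UMIs. Expression within the epithelial-like class was uneven. A Cxcl5 UMI was found in 22.7% of the medium epithelial-like cells, against 3.38% of the monocyte/macrophage-like cells, and 48 cells with 10 or more UMIs (up to 231 in 1 cell) held 58.3% of the class's UMIs.

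**Figure D2:**
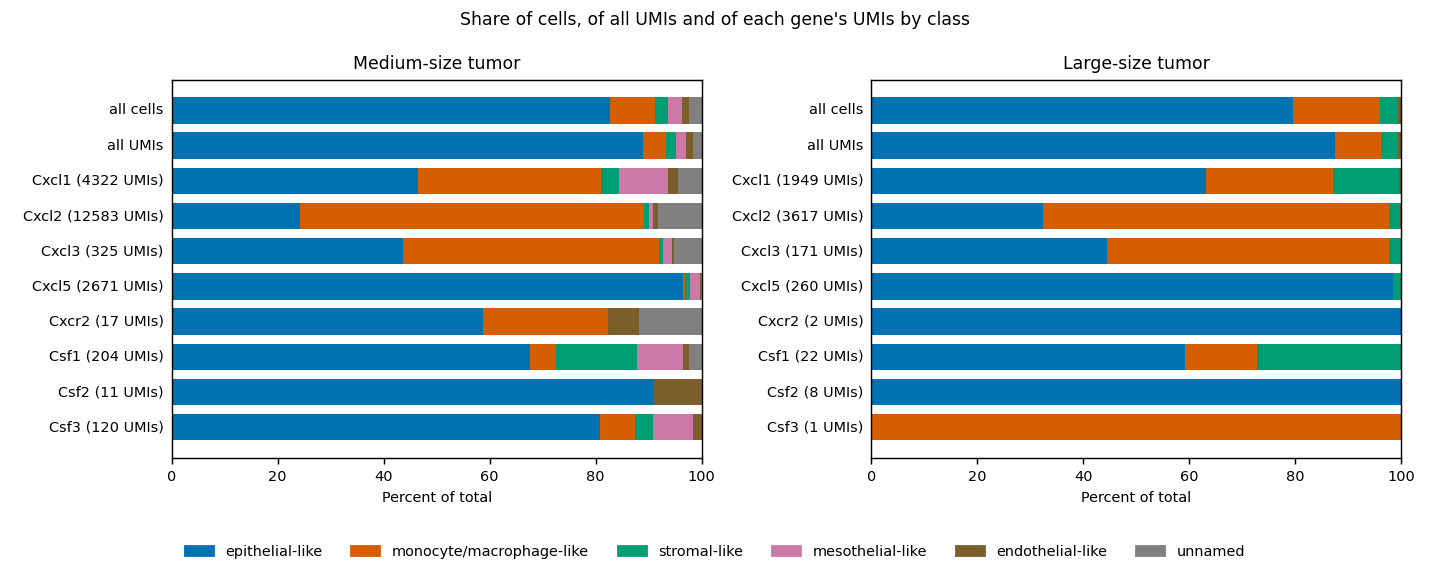
Share of the cells, of all UMIs and of the UMIs of each gene that fell in each class, in percent, for the medium (left) and large (right) tumor. Monocyte/macrophage-like cells held 65.0% of the Cxcl2 UMIs of the medium tumor while being 8.43% of the cells, and epithelial-like cells held 96.6% of the Cxcl5 UMIs.

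Free RNA from lysed cells gives UMIs in droplets of other cells, so the epithelial levels of the 3 macrophage-high chemokines were set beside 11 monocyte/macrophage markers. In medium epithelial-like cells these markers had 0.524% to 12.4% of their monocyte/macrophage level (median 0.738%, the highest being Cd14). Cxcl1 stood at 6.80% and Cxcl3 at 4.58%, each above 10 of the 11 markers, and Cxcl2 at 1.89%, above 9 of them with Cd14 and Cd68 higher. In large epithelial-like cells the markers reached at most 4.81% (median 0.911%), and Cxcl1 at 26.4%, Cxcl3 at 8.36% and Cxcl2 at 4.96% each exceeded all 11. The margin was small for Cxcl2, which lay between 1.5% and 2.59% in every medium epithelial-like cluster. Some groups did not stand above the markers. Cxcl3 in medium cluster 10 rested on 1 UMI and lay at 0.635%, below all 11 markers, and Cxcl2 in mesothelial-like cells at 3.00%, below 7 of them. Cxcl1 lay at 1.49% in large cluster 4, below 3 markers, and at 1.2% in large cluster 6, below 9. The part of free RNA in these levels was not tested. In the unnamed cluster Cxcl1, Cxcl2 and Cxcl3 lay at 34.3%, 33.1% and 28.2%, within the 22.4% to 36.7% of the markers. Cxcl5 lay there at 9.96% of its epithelial level, from 5 UMIs, below all 11 epithelial markers (53.7% to 114%).

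**Figure D3:**
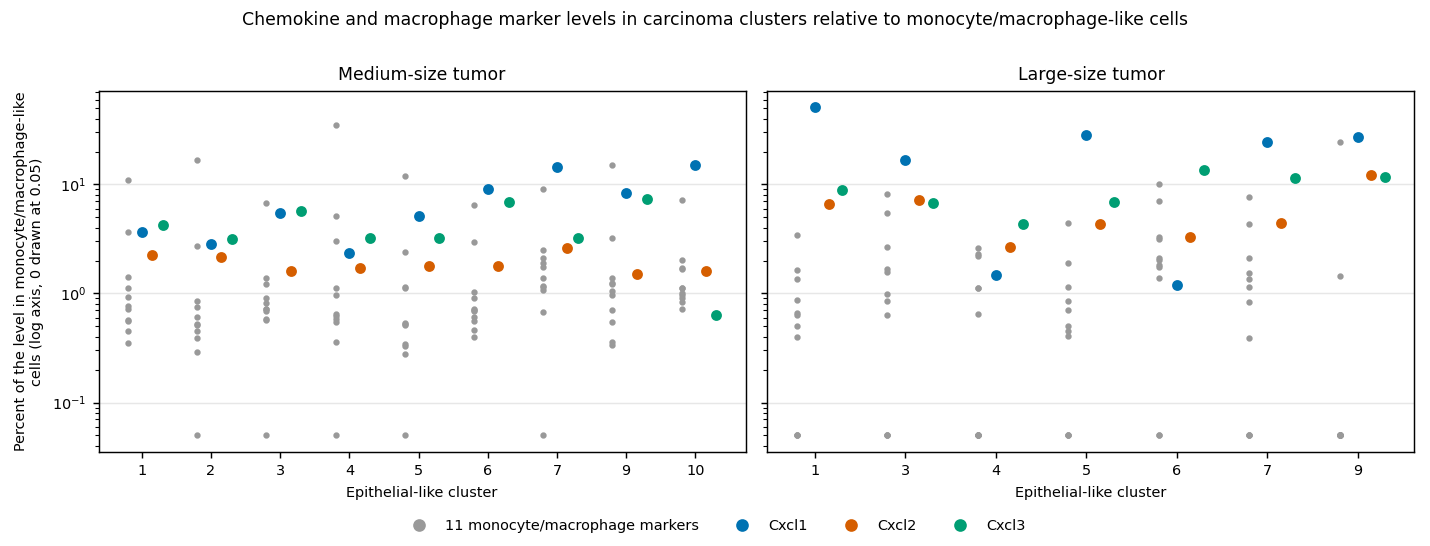
Level of Cxcl1, Cxcl2, Cxcl3 and of 11 monocyte/macrophage markers in each epithelial-like cluster, as percent of the level in monocyte/macrophage-like cells of the same tumor (log axis, 0 drawn at 0.05). Cxcl1 stood at 26.4% over all large epithelial-like cells and near the markers in large clusters 4 and 6 (1.49% and 1.2%), and Cxcl2 stayed between 1.5% and 2.59% in the medium clusters.

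Cxcr2, the receptor of these chemokines, was at the limit of detection. It had 17 UMIs in 16 of 2812 medium cells and 2 UMIs in 2 of 1533 large cells. The medium UMIs were split over 10 in epithelial-like, 4 in monocyte/macrophage-like, 2 in unnamed and 1 in endothelial-like cells, and both large UMIs were in epithelial-like cells. Relative to all UMIs of each class, the medium level was lower in epithelial-like than in monocyte/macrophage-like cells (log2 ratio -2.98), on these few UMIs. No cluster was named granulocyte-like in either tumor. The neutrophil marker Ly6g had 12 UMIs in 4 medium cells and none in the large tumor, where a count of 0 allows up to 1.34 CPM. Of the 10 granulocyte markers listed, at least 5 were found in 8 medium and 6 large cells. Of the 16 medium cells with a Cxcr2 UMI, 5 also had a UMI of any of the 6 neutrophil genes Retnlg, Ly6g, Camp, Ngp, Ltf and Mmp8, but so did 774 of all 2812 medium cells, 690 of them with Ltf, so this count says nothing of the Cxcr2 cells. Of the 2 large cells none did. Csf3r, the receptor of Csf3 and another neutrophil gene, had 26 and 8 UMIs. Cells with the receptor were thus too few in both tables to be described. S100a8 and S100a9, which monocytes share with neutrophils, reached 3833 CPM and 4323 CPM in large monocyte/macrophage-like cells. The neutrophil granule genes Camp and Ngp were also highest there, at 494 CPM and 372 CPM, and came from 9 and 5 cells of the large tumor (106 and 77 UMIs). In the medium tumor S100a8, S100a9, Camp and Ngp were highest in the unnamed cluster, at 424, 404, 137 and 108 CPM.

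Csf1, the macrophage growth factor, had its highest class level in stromal-like cells of the medium tumor at 84.7 CPM (57.5 to 120), followed by mesothelial-like cells at 46.0 CPM (27.2 to 72.7), with overlapping intervals. Monocyte/macrophage-like cells had 10.9 CPM (5.25 to 20.1) and epithelial-like cells 7.65 CPM (6.43 to 9.04), a ratio of epithelial to monocyte/macrophage-like level of 0.699 with an interval from 0.369 to 1.49 that includes equality. Stromal-like cells were 11.1-fold (7.24 to 16.4) and mesothelial-like cells 6.01-fold above epithelial-like cells. Of 6 members, 3 (Csf1, Cxcl1 and Csf3) were called higher in stromal-like than in epithelial-like cells, against 15.4% of 10794 genes, and 4 (these and Cxcl3) in mesothelial-like cells, against 13.7% of 10789. The call of Cxcl3 in mesothelial-like cells depended on the 1 UMI added to each sum, since the ratio without it was 1.95. Csf1 in the large tumor rested on 22 UMIs, 6 of them in stromal-like cells (88.0 CPM, 32.3 to 192) and 13 in epithelial-like cells (6.64 CPM).

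Csf3, the neutrophil growth factor, had 120 UMIs in the medium tumor, 80.8% of them in epithelial-like cells at 5.38 CPM (4.36 to 6.56). The mesothelial-like level of 23.0 CPM came from 9 UMIs in 5 cells, the monocyte/macrophage-like level of 8.75 CPM from 8 UMIs in 5 cells, and the stromal-like level of 10.9 CPM from 4 UMIs. The intervals of the monocyte/macrophage-like and epithelial-like cells overlapped (3.78 to 17.3 against 4.36 to 6.56). The large tumor had 1 Csf3 UMI, in a monocyte/macrophage-like cell. Csf2, the granulocyte and macrophage growth factor, had 11 UMIs in the medium tumor and 8 in the large one. Of these, 10 and 8 were in epithelial-like cells and the other in an endothelial-like cell.

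Within the medium carcinoma cells, 5 of the 6 members with at least 20 epithelial UMIs were at least 2-fold higher in their highest cluster than in the median of the 9 epithelial-like clusters, where 38.1% of 12106 genes were. The exception was Cxcl2, with clusters between 135 and 232 CPM and a highest cluster 1.46-fold above the median. Csf1 was the most uneven at 19.96-fold, then Cxcl5 at 3.17-fold, Cxcl1 at 2.73-fold, Csf3 at 2.63-fold and Cxcl3 at 2.26-fold. The Cxcl3 range rested on 1 to 35 UMIs per cluster.

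Cluster 10 (121 cells), led by Krt17, Ctla2a, Slco2a1 and Tnc and highest in the basal and oncofetal lists, held most of the carcinoma UMIs of Csf2 and close to as many of Csf1 as all other epithelial-like cells together (68 and 70). Its Csf1 level was 74.1 CPM (57.6 to 94.0), 18.1-fold (12.8 to 25.7) above the other epithelial-like cells, and its interval overlapped that of stromal-like cells. Csf1 was found in 34.7% of the cells of cluster 10 and in 1.06% to 5.50% of the cells of the other epithelial-like clusters, and the level was 60.3 CPM without the 5 highest cells. Of the 10 epithelial Csf2 UMIs, 9 were also in this cluster, in 9 cells (9.81 CPM), against 1 UMI in all other epithelial-like cells, a ratio of 168 with a counting interval from 23.3 to 7363. Cxcl1 was 2.37-fold higher (2.05 to 2.72) and Csf3 2.39-fold higher (1.15 to 4.49), the latter from 11 UMIs. Csf3 was also high elsewhere, since cluster 5 (19 UMIs, 10.6 CPM) and cluster 9 (18 UMIs, 11.9 CPM) had levels with overlapping intervals. In cluster 5 it was 2.20-fold (1.26 to 3.67) above the other epithelial-like cells, the only member of 6 called higher there, against 0.937% of genes. Cxcl5 in cluster 10 was 13.8-fold lower (7.47 to 28.7) than in the other epithelial-like cells, at 10.9 CPM from 10 UMIs. Of the 6 members tested in cluster 10, 3 were called higher, against 13.5% of 10669 genes, and 2 (Cxcl5 and Cxcl3) lower, against 10.0%. Il34, the other ligand of Csf1r, was also higher in cluster 10, at 48.0 CPM against 14.97 CPM over all epithelial-like cells.

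Cxcl5 had its highest level in cluster 9 (200 cells, led by Sox11, Akap12, Cldn4 and Ncam1) at 341 CPM (313 to 372), 2.73-fold (2.48 to 3.01) above the other epithelial-like cells, where 4.24% of genes were at least 2-fold higher and 2 of 6 members were (Cxcl5 and Csf3). Cluster 6 (led by Yap1, Birc2, Dcun1d5 and Cldn18) followed at 230.1 CPM (212 to 249). This order did not hold without the 5 highest cells of each, which left 158 CPM in cluster 9 and 162 CPM in cluster 6. A Cxcl5 UMI was found in 48.6% of the cells of cluster 6 and 33.0% of those of cluster 9. These shares were not at equal depth, with medians of 8648 and 5894.5 UMIs per cell. In the cycling cluster 3, 153 CPM became 65.5 CPM without 5 cells. Csf3 in cluster 9 was 2.50-fold higher (1.41 to 4.21), from 18 UMIs.

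Cluster 7 (220 cells, with Inhba, Bmp2 and Piezo2 among its leading genes and highest in the mesenchymal list) had 239 CPM (217 to 262) of Cxcl1, 2.46-fold (2.21 to 2.74) above the other epithelial-like cells and not apart from the 246 CPM (215 to 281) of cluster 10. It had 64.3 CPM of Cxcl5, 2.36-fold lower (1.96 to 2.87). There 1 of 6 members (Cxcl1) was called higher, against 8.20% of genes, and 2 (Csf1 and Cxcl5) lower, against 11.9%. The lowest Cxcl1 levels were in the secretory cluster 4 (38.4 CPM), cluster 2 (46.6 CPM) and the gastric pit cluster 1 (59.3 CPM). The intervals of clusters 4 and 2 overlapped, as did those of clusters 2 and 1. Against the gastric pit cluster alone, Cxcl1 was 4.03-fold (3.30 to 4.94) higher in cluster 7, the only member called of 3 tested (9.44% of 6991 genes higher). In the large tumor, cluster 1 (270 cells, led by Ggct, Ramp1 and Ank) was highest in the same mesenchymal list and had the same pair of differences. Cxcl1 there was 1211 CPM (1111 to 1319), 2.64-fold (2.36 to 2.96) above the other epithelial-like cells, and Cxcl5 was 15.9 CPM, 10.3-fold lower (4.93 to 25.9). These calls were 1 of 4 members in each direction, against 7.19% and 11.4% of 4365 genes. Of the 8 Csf2 UMIs of the large tumor, 5 were in this cluster and the other 3 in the cycling cluster 5.

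**Figure D4:**
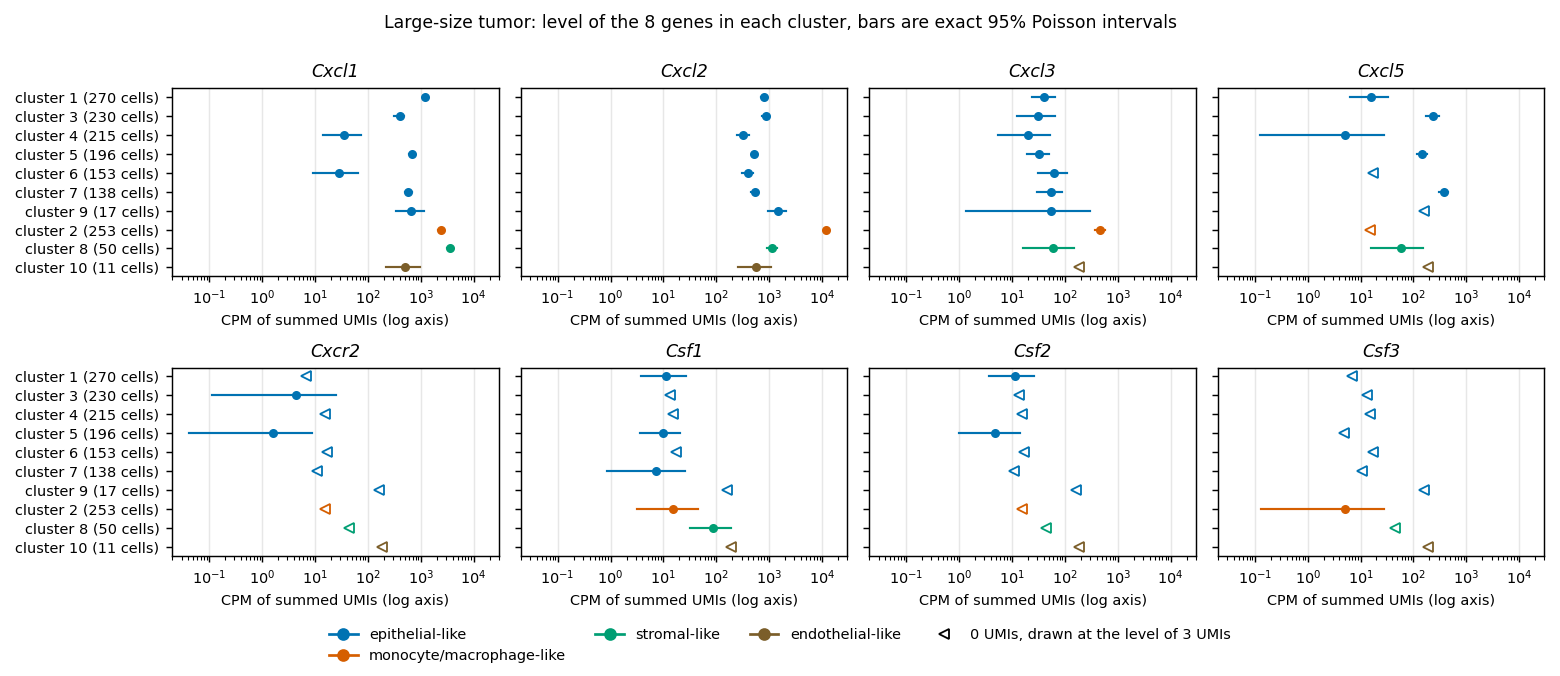
Level of each of the 8 genes in the 10 clusters of the large tumor, as CPM of summed UMIs on a log axis, with exact 95% Poisson intervals, colors for the classes and open triangles for 0 UMIs. Cxcl1 ranged from 28.5 CPM in cluster 6 to 1211 CPM in cluster 1 among epithelial-like clusters, and Cxcl5 reached 375 CPM in cluster 7.

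Among the other large epithelial-like clusters, Cxcl1 was lowest in the gut-type clusters. Cxcl1 was at 673 CPM in the cycling cluster 5, 585 CPM in the gastric pit cluster 7 and 397 CPM in cluster 3, and at 35.4 CPM (7 UMIs) in the enterocyte cluster 4 and 28.5 CPM (5 UMIs) in the goblet cluster 6. Clusters 4 and 6 together had 32.1 CPM, 23.9-fold (13.6 to 46.4) below the 769 CPM of the other epithelial-like cells without cluster 9, and held 1 Cxcl5 UMI. The Cxcl1 levels of clusters 4 and 6 lay within the range of the monocyte/macrophage markers there, and the part of free RNA in this ratio was not tested. There 2 of 4 members (Cxcl1 and Cxcl5) were called lower, against 22.5% of 4338 genes. Cxcl2 was at 324 CPM in cluster 4, 393 CPM in cluster 6 (below 3 of the 11 markers) and 517 to 857 CPM in clusters 1, 3, 5 and 7. In the 17 cells of cluster 9, Cxcl2 (27 UMIs) and Cxcl3 (1 UMI) were called higher, 2 of 4 members, against 31.6% of genes. Cxcl5 was highest in the gastric pit cluster 7 at 375 CPM (306 to 454), 4.17-fold (3.22 to 5.38) above the other epithelial-like cells, where 3.64% of genes were higher. It was 134 CPM there without the 5 highest cells. Cxcl5 was also called higher in cluster 3, as 1 of 4 members, against 2.50% of 4365 genes. The cycling cluster had less Cxcl5 than the gastric pit cluster in the large tumor (ratio 0.390) and more in the medium tumor (ratio 1.80).

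None of 3 members was called between the 2 medium monocyte/macrophage-like clusters, where 6.56% of 2272 genes were higher and 4.09% lower in cluster 15. Cluster 15 (36 cells, led by Cd74, H2-Aa and C1qa) had 0.878 of the Cxcl1, 0.919 of the Cxcl2 and 0.866 of the Cxcl3 level of cluster 8 (201 cells, led by Wfdc17, Chil3, Ccl6 and Lyz2). Ppbp, another ELR ligand of the same gene cluster, was called lower in cluster 15, with 12.2 CPM from 2 UMIs against 120.04 CPM. At equal depth, 98.7% of monocyte/macrophage-like cells with a Cxcl1 UMI also had a Cxcl2 UMI, against 80.2% of those without. Among medium epithelial-like cells, a Cxcl5 UMI was found in 21.9% (17.6 to 26.8) of cells with a Cxcl1 UMI and in 11.6% (10.3 to 13.1) of cells without, and a Cxcl2 UMI in 29.7% and 21.1%. These shares were taken at an equal depth of 2500 UMIs per cell and are a description.

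Between the tumors, the epithelial-like cells of the large tumor had more Cxcl1, Cxcl2 and Cxcl3 in CPM and about the same Cxcl5. Cxcl1 was 5.64-fold higher (5.25 to 6.06; 627 against 111 CPM), Cxcl2 3.54-fold (3.30 to 3.78) and Cxcl3 4.93-fold (3.68 to 6.56), whereas Cxcl5 had a ratio of 0.914 (0.801 to 1.04) and Csf1 of 0.867 (0.451 to 1.53). Of 6 members, 3 were called higher, against 7.34% of 10872 genes, and 1 (Csf3) lower, against 18.8%. Csf3 had 0 UMIs in large epithelial-like cells, at least 3.51-fold lower than in the medium tumor. Csf2, too sparse for that count, was 7.37-fold higher with an interval from 2.53 to 20.7, on 8 and 10 UMIs. Without the 3 clusters that went with gut lists or stood apart, the ratios were 6.91 for Cxcl1, 3.82 for Cxcl2, 4.86 for Cxcl3 and 1.14 for Cxcl5, and the same 3 of 6 members were called higher, against 6.88%, and Csf3 lower, against 20.2%.

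**Figure D5:**
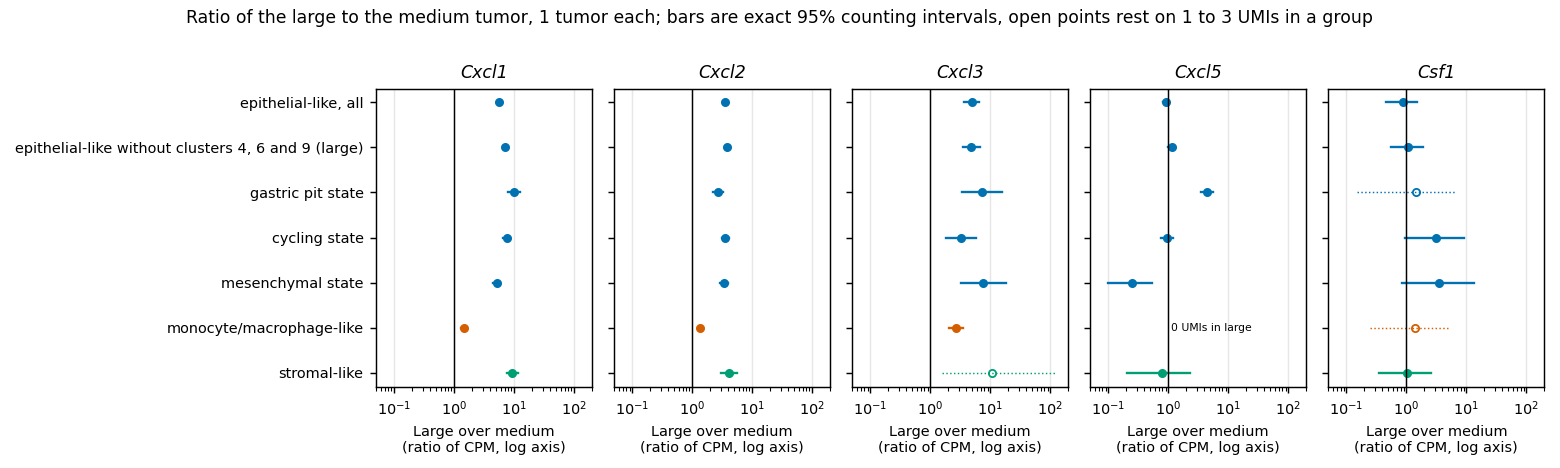
Ratio of the CPM in the large to that in the medium tumor (log axis) for Cxcl1, Cxcl2, Cxcl3, Cxcl5 and Csf1 in 7 groups of cells, with exact 95% counting intervals and open points where a group had 1 to 3 UMIs. Cxcl1 was 5.64-fold higher in epithelial-like and 1.46-fold higher in monocyte/macrophage-like cells, and Cxcl5 lay on both sides of 1.

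The size of the difference varied with the class. Monocyte/macrophage-like cells had 1.46-fold (1.31 to 1.61) more Cxcl1, 1.34-fold (1.28 to 1.41) more Cxcl2 and 2.70-fold (2.06 to 3.52) more Cxcl3 in the large tumor, and 1 of 3 members (Cxcl3) was called, against 8.25% of 2642 genes. Stromal-like cells had 9.21-fold (7.46 to 11.4) more Cxcl1 and 4.14-fold (3.03 to 5.63) more Cxcl2, both members tested being called, against 9.92%, as were 3 of 9 immediate early and stress genes (Fos, Egr1 and Dusp1). By carcinoma state, Cxcl1 was 9.87-fold higher in the gastric pit, 7.45-fold in the cycling and 5.08-fold in the mesenchymal cluster of the large tumor, and Cxcl2 2.66-fold, 3.58-fold and 3.40-fold. Cxcl5 went different ways, with 4.42-fold more (3.44 to 5.64) in the gastric pit cluster, a ratio of 0.957 (0.758 to 1.2) in the cycling and 0.247 (0.0973 to 0.526) in the mesenchymal cluster. The background was 9.22% of genes higher in the gastric pit state (3 of 3 members), 6.77% in the cycling state (3 of 4) and 9.43% in the mesenchymal state (2 of 3, with Cxcl5 lower against 20.4%). The median depth differed between the tables (5456.5 and 1037 UMIs per cell), and tumor, library and size cannot be told apart with 1 tumor each. Of 10 immediate early and stress genes, which dissociation can induce, 3 (Fosb, Jun and Junb) were called lower and 0 higher in large epithelial-like cells, against 18.8% and 7.34% of all genes, and their part in the result was not tested.

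The genes whose levels were most like those of the members were named by Pearson r of log2(CPM + 10) over the 15 medium clusters, among 7838 genes. Closest to Cxcl1 were the chemokine Ccl2 (r = 0.947) and Nr4a2 (0.940). Closest to Cxcl2 were Cd52 (0.992), Ccrl2 (0.990) and Alox5ap (0.988), and to Cxcl3 the scavenger receptor Msr1 (0.981) and Clec4e (0.974), all high in the monocyte/macrophage-like clusters. Closest to Cxcl5 were Gata5 (0.809) and Serpinb6b (0.808), and to Csf1 Zyx (0.884) and the collagen gene Col8a1 (0.884). All points share 1 library, and these values are a description. Over the 10 large clusters r was lower for each of these genes with a value there, at 0.558 for Ccl2, 0.359 for Nr4a2, 0.861 for Cd52, 0.720 for Alox5ap, 0.389 for Clec4e, 0.761 for Serpinb6b and 0.0266 for Zyx.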

How the data were processed

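The deposited tables hold whole-number counts of UMIs per gene and cell, 1 table for the medium and 1 for the large tumor. Per the labels and the study's methods, the authors dissociated the tumors, prepared droplet 3′ libraries and made the counts with Cell Ranger on mm10 (submitters' processing notes; the version is not given in the sources used here), pooling 4 technical replicates per tumor. p-values were therefore not computed. The members, gene lists and naming thresholds were chosen with earlier results of these data known.

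All cells were kept. Each table was clustered in R 4.3.3 with Seurat 5.3.0 (scaling to 10000, 2000 variable genes without 39 member and list genes in the medium and 28 in the large tumor, 10 principal components, resolution 0.8). A cluster was named X-like when 3 or more markers of 1 class were in at least 10% of its cells and at 25% or more of the highest cluster, and left unnamed when another class also had 3 or more, and 60% or more of its own list. Scrublet (scanpy 1.11.5) called 0 of 2812 and 9 of 1533 cells (0.587%) doublets; 0 calls in the medium tumor mean that doublets were not found by this caller rather than shown absent, and none were removed.

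UMIs were summed per class and cluster (Python 3.11.15, numpy 2.4.6, scipy 1.17.1) and given as CPM with exact Poisson intervals, ratios with exact conditional binomial intervals and shares of cells with exact (Clopper-Pearson) intervals, all at 95%. Background counts used genes with at least 50 UMIs in the 2 groups together, with 1 UMI added to each sum. The genes named were the 8 members, the members of the pathway lists and, for each member with at least 200 UMIs, the genes with the highest r over clusters. Beside these, cell type and state markers from the fixed lists and some of the leading genes of a cluster (by ratio to all other cells) are named to identify cells. The summed ratios and the counting intervals were tested on simulated Poisson counts, and the other steps were not. Such counts do not hold the unevenness between cells seen here, so the test does not cover it. Some items of the study's design and of the gene lists are not reported here.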

Additional observations from a re-analysis of the deposited data

Results flagged for a closer look

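For Cxcl1, the ratio of stromal-like to monocyte/macrophage-like cells was 0.239 in the medium tumor and 1.51 in the large tumor, on opposite sides of 1 with intervals that do not overlap (0.200 to 0.284 and 1.29 to 1.77). The stromal-like classes held 70 and 50 cells. Without the 5 cells with most Cxcl1 UMIs in each class, stromal-like and monocyte/macrophage-like levels were 245 CPM and 1433 CPM in the medium tumor and 2446 CPM and 1971 CPM in the large one, and 2446 CPM lies within the interval of all large monocyte/macrophage-like cells (2169 to 2606 CPM). The difference between the tumors was not tested, since each is 1 tumor.

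For Cxcl5, the ratio of the cycling to the gastric pit cluster was 1.80 in the medium tumor and 0.390 in the large tumor. Few cells carried these levels. Without the 5 cells with most Cxcl5 UMIs the medium cycling cluster had 65.5 CPM and the gastric pit cluster 22.0 CPM, and the large ones 70.8 CPM and 134 CPM. This difference between the tumors was not tested either.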

How the results depend on the processing

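The count of members at least 2-fold higher in 1 medium carcinoma cluster than in the median cluster was 5 (Cxcl1, Cxcl3, Cxcl5, Csf1 and Csf3), 2 at a fold of 3 (Cxcl5 and Csf1) and 3 at a resolution of 0.4 (Cxcl1, Csf1 and Csf3). It was 4 with 20 principal components and without the cluster named on 3 markers, both without Cxcl3, and 4 with the members kept in the clustering, without Cxcl5. The count of members with their highest class level in epithelial-like cells was 1 (Cxcl5) and 0 when every cell had equal weight. Cxcl5 stayed the only member called higher in epithelial-like than in monocyte/macrophage-like cells under the alternatives run. Cxcl1, Cxcl2 and Cxcl3 were higher in large than in medium epithelial-like cells under each alternative run. Counted with no minimum of UMIs they were 4 with Csf2, and 5 where an alternative added the sparse Cxcr2. The log2 ratio of epithelial-like over monocyte/macrophage-like cells kept its sign for 7 members under 9 settings, with 11 of 63 values outside the counting interval and none reversed. It ranged from -4.08 to -3.61 for Cxcl1, -5.83 to -5.33 for Cxcl2, -4.48 to -4.17 for Cxcl3, 2.42 to 4.12 for Cxcl5, -0.73 to -0.42 for Csf1 and -0.80 to -0.27 for Csf3. For the sparse Cxcr2 it ranged from -3.14 to -2.43. The lowest value of Cxcl5, 2.42, came from naming each cell by its own markers. Leaving out the cluster named on 3 markers, the gut-type clusters or the 5 highest cells was chosen after seeing the data. Thinning cells to 500 UMIs left a Cxcl2 UMI in 80.6% of monocyte/macrophage-like and 6.15% of epithelial-like cells of the medium tumor, and in 81.0% and 16.2% of those of the large tumor. No paired analysis was possible because the cell columns carry no technical replicate number, so single replicates could not be left out either. Depth limits Cxcr2, Csf2 and, in the large tumor, Csf1 and Csf3.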

Other observations

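The receptors of the growth factors lay with the macrophages. In the medium tumor Csf1r was at 262 CPM in monocyte/macrophage-like and 8.10 CPM in epithelial-like cells, Csf2rb at 269 CPM and 5.71 CPM, and Csf2ra at 79.9 CPM and 2.66 CPM. All 4 receptors tested of 7 listed (Csf1r, Csf2ra, Csf2rb and Csf2rb2) were at least 2-fold lower in epithelial-like cells, against 10.5% of all genes, and Cxcr1 had 0 UMIs. Il34, the other ligand of Csf1r, was at 14.97 CPM in epithelial-like cells and 1.09 CPM, from 1 UMI, in monocyte/macrophage-like cells. Of the other ELR ligands, Ppbp, which lies between Cxcl5 and Cxcl3, was at 101 CPM in monocyte/macrophage-like and 5.82 CPM in epithelial-like cells, and Cxcl15 had 2 UMIs in epithelial-like cells.

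The inducing cytokines were also macrophage genes in the medium tumor: Il1b was at 1581 CPM in monocyte/macrophage-like and 38.6 CPM in epithelial-like cells, Il1a at 353 CPM and 14.1 CPM, and Tnf at 234 CPM and 18.7 CPM. Of 7 genes tested on the list of these cytokines, their receptors and the adaptor Myd88, 5 were lower and 1 (Il1r1) higher in epithelial-like cells. NF-kB target genes went the same way, with 7 of 11 lower and 0 higher, as did 2 of 4 genes of mRNA decay (Zfp36 and Zc3h12a). ERK feedback genes, which are induced by ERK signaling, went the other way, with 5 of 8 higher and 0 lower, and of 10 immediate early and stress genes 1 (Atf3) was higher and 0 lower. Against these counts stand 27.2% of all genes higher and 10.5% lower.

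Other CXC chemokines had other places. In the medium tumor Cxcl13, which attracts B cells, was at 761 CPM in mesothelial-like and 0.943 CPM in epithelial-like cells, Cxcl14 at 404 CPM in stromal-like cells, and Cxcl12 at 144 CPM in endothelial-like cells. Of 5 of these chemokines tested, 1 (Cxcl17) was higher and 2 (Cxcl10 and Cxcl14) lower in epithelial-like than in monocyte/macrophage-like cells, against 27.2% and 10.5% of all genes. In epithelial-like cells of the large tumor Cxcl10, an interferon-induced chemokine, was at 50.03 CPM, against 5.66 CPM in the medium tumor. Il1b was at 3007 CPM in the large monocyte/macrophage-like cells and 1581 CPM in the medium ones. Of 11 NF-kB target genes, 3 (Nfkbiz, Tnfaip3 and Nfkb1) were higher and 1 (Birc3) lower in large than in medium epithelial-like cells, and of 8 ERK feedback genes 1 (Fosl1) was higher and 1 (Etv4) lower, against 7.34% of all genes higher and 18.8% lower.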
